A study of Mus musculus with 6 samples.

Results

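Genes of the integrated stress response and of amino acid charging were examined in splenic T cells of mice given rapamycin or phosphate-buffered saline (PBS). A list of 37 genes was taken, made of the cytosolic aminoacyl-tRNA synthetases (20 genes) and of the transcription factor gene Atf4 with genes known as its targets or partners (17 genes). Of these, 34 had a probe set of their own on the array, 18 of the synthetases and 16 of the others, out of 19938 genes measured. Dars and Pycr1 were not matched, and Aars was covered by a probe set that also names Exosc6. Genes entered the list by name and not by a measured value, but the list was chosen with earlier results of these data known. Where a gene had several probe sets of its own, that with the highest mean over all arrays was used, which is a choice by measured value.

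The 6 mice were B6D2F1/J recipients, an F1 strain, that had received lethal irradiation and T cell-depleted bone marrow of B6 mice. The protocol allows for marrow given alone or together with spleen cells of B6 mice, and for no single mouse do the labels state which. In 3 mice 1.5 mg/kg rapamycin was injected intraperitoneally every second day up to day 10, and in the other 3 mice PBS was injected. Spleen cells positive for CD3 were sorted on day 10 and their total RNA was hybridised, 1 array per mouse. The sort names no donor marker, so T cells of the donor and any that the host still had were not separated. Values are log2 expression, and each difference is rapamycin minus PBS.

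The integrated stress response starts when a kinase that senses amino acid shortage, misfolded protein or another stress phosphorylates the translation factor eIF2. General protein synthesis then falls while translation of Atf4 mRNA rises, so that ATF4 is set largely after transcription. ATF4, with C/EBP partners, induces enzymes of serine, asparagine and proline synthesis, folate enzymes of the mitochondrion, and many of the synthetases that join each amino acid to its tRNA. In activated T cells the kinase complex mTORC1, which rapamycin inhibits, is also known to raise ATF4 and its metabolic targets.

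ATF4 dimers with C/EBP proteins bind a composite element, written here as TGATGNAA and searched on both strands. RefSeq promoter windows (assembly GRCm38.p6, 250 bases before to 50 after the start) were matched for 30 of the 37 genes, 17 of 17 in the ATF4 group and 13 of 20 synthetases. The element was found in 11 of the 30, or 36.7%, against 4.51% of all 27025 genes with such a window, or 3.97% of the 32851 windows. Since the genes were listed for their link to ATF4, this share describes the list. The windows below hold the matches that lie wholly before the start in genes with their own values, cut at the start, with the match in capitals and read 5′ to 3′ on the gene's strand.
Asns: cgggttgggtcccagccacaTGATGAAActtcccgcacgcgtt
Chac1: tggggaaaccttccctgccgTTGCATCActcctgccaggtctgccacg
Atf3: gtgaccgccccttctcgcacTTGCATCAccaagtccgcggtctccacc
Nupr1: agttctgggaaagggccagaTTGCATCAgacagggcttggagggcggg
Gars: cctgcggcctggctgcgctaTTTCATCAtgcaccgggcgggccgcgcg
Tars: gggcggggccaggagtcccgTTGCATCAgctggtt
The Asns stretch is chr6:7693210-7693252 on the minus strand, with the match from -23 to -16 relative to the start. In Chac1 (chr2:119351029-119351076 on the plus strand) the match lies from -193 to -186. In Atf3 (chr1:191183416-191183463 on the minus strand) and in Nupr1 (chr7:126625553-126625600 on the minus strand) it lies at the same place, from -110 to -103. Among the synthetases it lies in Gars (chr6:55037951-55037998 on the plus strand) from -30 to -23 and in Tars (chr15:11399659-11399693 on the minus strand) from -15 to -8. Asns carries the element in the same direction as the gene, and the other 5 carry it on the opposite strand, where it reads as its reverse complement. Matches after the start were found in Iars, Yars and Trib3, and Aars had matches on both sides. Pycr1, which has no values here, matched before the start. No match to these letters was found in the windows of Atf4, Psat1, Psph, Phgdh, Shmt2, Mthfd2, Aldh18a1, Ddit3, Ddit4, Atf5 and Cebpb, nor in those of the other 8 matched synthetases.

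**Figure D1:**
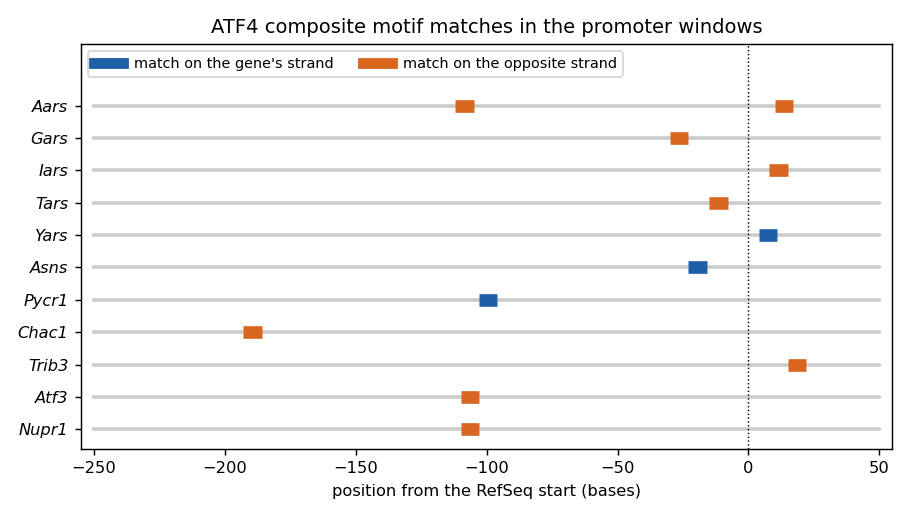
Position of each TGATGNAA match, in bases from the RefSeq start (dotted line), in the 11 genes that hold one. Grey lines are the windows searched, blue blocks are matches on the gene's strand and orange blocks matches on the opposite strand. Matches lie between -193 and 22, and those of Atf3 and Nupr1 share a position.

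Whether rapamycin changed these genes was asked with limma's moderated test over all 19938 genes, with Benjamini-Hochberg adjustment. A gene was called where the adjusted p was under 0.05. None of the 34 genes was called, where 1 gene, or 0.00502% of all genes tested, was called in the same limma fit. At an unadjusted p under 0.05, Cebpb was higher and Psph lower, which is 1 of 34 in each direction, against 1.6% of all genes higher and 3.07% lower. The smallest adjusted p among the 34 was 0.982, shared by these 2 genes. The 95% interval of the difference lay inside 1.5-fold in both directions for 33 of the 34 genes, Ddit4 being the exception. For all genes this share was 95.5%, so the narrow intervals are those of the experiment as a whole. Each interval is for its gene alone and is not widened for the number of genes. In these sorted bulk samples a smaller share of cells that express a gene cannot be told apart from less RNA per cell.

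Synthetase transcripts lay close together between the groups. Of 18 measured, 8 had positive and 10 negative differences, with a median of -0.0125, and the median over all genes was also -0.0125. Over all genes 44.72% of differences were positive and 55.22% negative. When each array was centred on its own median the split became 10 positive and 8 negative, and that of all genes 10305 positive and 9633 negative. Differences ran from -0.13 for Tars to 0.10 for Lars, and the outermost interval bounds of the 18 were -0.33 and 0.38. The groups did not overlap for 2 synthetases, Gars and Tars, both lower with rapamycin, and for none in the upward direction. Over all genes 6.28% did not overlap with rapamycin lower and 3.14% with rapamycin higher. The median within-group SD of the synthetases was 0.0896, against 0.117 over all genes.

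**Figure D2:**
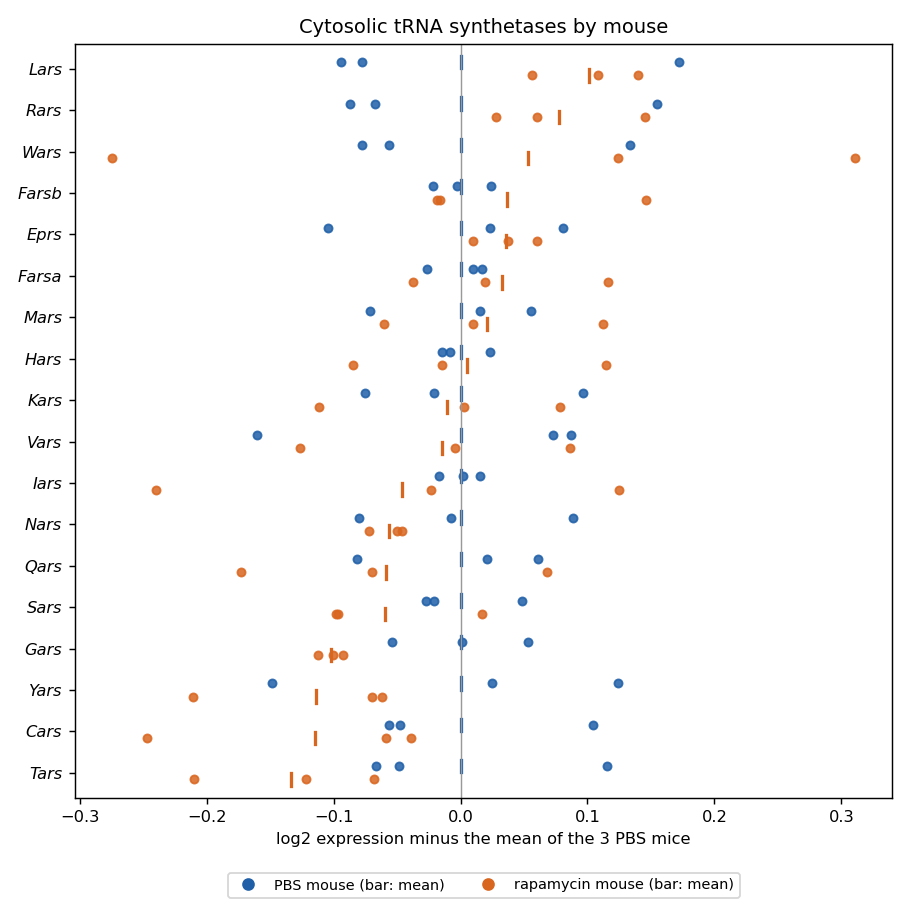
Log2 expression of 18 cytosolic tRNA synthetases in each mouse, as the distance from the mean of the 3 PBS mice; points are mice, bars are group means, blue PBS and orange rapamycin. The groups are apart in Gars and Tars, and Wars is spread most widely among the rapamycin mice.

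Gars, which charges tRNA with glycine in both cytosol and mitochondrion, measured 10.85, 10.79 and 10.90 in the PBS mice and 10.74, 10.76 and 10.75 in the rapamycin mice. All rapamycin mice lay below all PBS mice, and the rapamycin values had an SD of 0.01. The difference was -0.10 (SE 0.072, 95% interval -0.27 to 0.06). Tars, the threonine enzyme, measured 9.13, 9.11 and 9.29 in the PBS mice and 8.97, 9.11 and 9.06 in the rapamycin mice. The highest rapamycin mouse and the lowest PBS mouse were equal at 2 decimals, so the separation was minimal. The difference of Tars was -0.13 (SE 0.085, 95% interval -0.33 to 0.06). Neither difference passed the test (adjusted p = 0.9998 in limma for both).

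Yars, for tyrosine, and Cars, for cysteine, lay nearest to Tars in their differences. Yars measured 8.22, 8.50 and 8.40 in the PBS mice and 8.16, 8.31 and 8.30 in the rapamycin mice, with a difference of -0.11 (SE 0.094). Cars measured 7.94, 8.09 and 7.93 in the PBS mice and 7.93, 7.95 and 7.74 in the rapamycin mice, with a difference of -0.11 (SE 0.09). In both genes the groups overlapped, and a single rapamycin mouse lay lowest, replicate 1 for Yars and replicate 3 for Cars.

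Lars, for leucine, the amino acid whose supply mTORC1 senses and whose synthetase has itself been described as a leucine sensor, had the highest difference. It measured 8.32, 8.57 and 8.31 in the PBS mice and 8.46, 8.54 and 8.51 in the rapamycin mice. PBS replicate 2 exceeded every rapamycin mouse while the other PBS mice lay below them, and the difference was 0.10 (SE 0.093, 95% interval -0.11 to 0.31). Rars, for arginine, differed by 0.078 (SE 0.09), and its highest value was that of PBS replicate 3.

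Wars, the tryptophan enzyme and also a known interferon-gamma-induced gene, varied more than any other synthetase. It measured 9.56, 9.58 and 9.77 in the PBS mice and 9.36, 9.76 and 9.95 in the rapamycin mice, and the rapamycin mice held both the lowest and the highest value of the 6. The difference was 0.053 (SE 0.14, 95% interval -0.28 to 0.38), and it ran from -0.075 without rapamycin replicate 3 to 0.22 without rapamycin replicate 1. Iars, for isoleucine, was tight among PBS mice and wide among rapamycin mice, at 10.72, 10.74 and 10.76 in the PBS mice and 10.50, 10.86 and 10.72 in the rapamycin mice. Its difference was -0.046 (SE 0.1), and a further Iars probe set gave a difference of 0.04 (SE 0.08), so the sign depended on the probe set.

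The remaining synthetases had differences between -0.059 and 0.037. Sars, for serine, measured 10.31 ± 0.04 with PBS and 10.26 ± 0.07 with rapamycin (SD, n = 3 each), Qars, for glutamine, 10.13 ± 0.07 with PBS and 10.07 ± 0.12 with rapamycin, and Nars, for asparagine, 9.75 ± 0.08 with PBS and 9.69 ± 0.01 with rapamycin. Their differences were -0.059, -0.058 and -0.057. Eprs, the fused enzyme for glutamate and proline, differed by 0.036 (SE 0.079). The phenylalanine enzyme is built of subunits from Farsa and Farsb, which differed by 0.033 and 0.037. Mars, for methionine, differed by 0.021, Hars, for histidine, by 0.0052, Kars, for lysine, by -0.01, and Vars, for valine, by -0.015. Each of these genes overlapped between the groups, and Kars and Vars turned positive when the arrays were centred on their medians. The probe set shared by Aars and Exosc6 differed by -0.018 (SE 0.072) and was not counted.

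Rapamycin replicate 1 was the lowest of the 6 mice for 8 of 18 synthetases, or 44.4%, against 23% of all genes. The mean over the synthetases was 9.43, 9.48 and 9.49 in the PBS mice and 9.40, 9.49 and 9.44 in the rapamycin mice, so the group means overlapped and the whole span was below 0.1. Neutrophil markers, which a CD3 sort should largely remove, were present on every array: the mean of 11 genes was 9.84, 9.36 and 8.50 with PBS and 10.17, 9.16 and 9.59 with rapamycin. Ordered from low to high neutrophil signal, the mice were in the order of falling synthetase mean, except that the first 2, PBS replicate 3 and rapamycin replicate 2, were exchanged. The mean of 7 T cell markers was highest in those same mice, at 11.81 and 11.83, and lowest in PBS replicate 1 and rapamycin replicate 1, at 11.57 each. Between the mice with the most and the least neutrophil signal, 12 of 18 synthetases were lower in the former, or 66.7%, against 48.4% of all genes. This order was noticed after the values were seen, and the part of these cells in it was not tested.

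**Figure D3:**
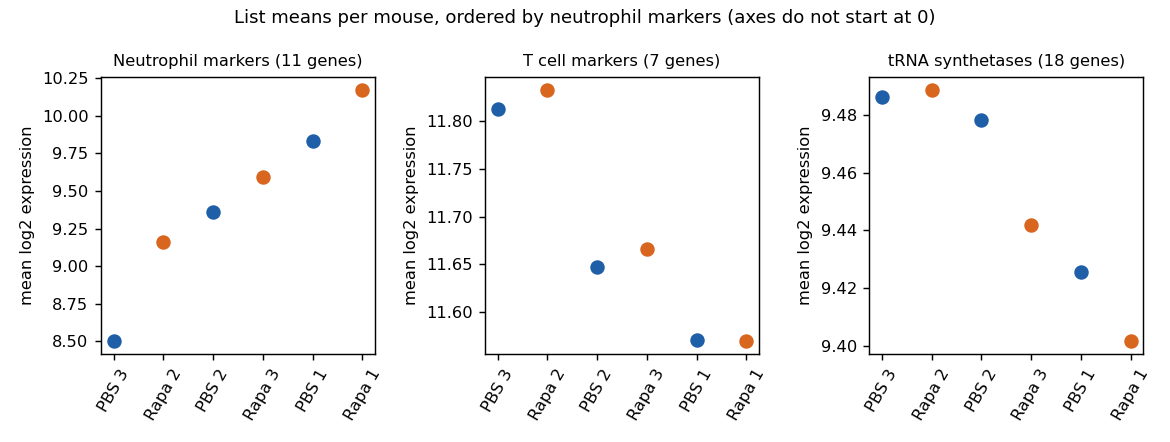
Mean log2 expression per mouse of 11 neutrophil markers, 7 T cell markers and 18 tRNA synthetases, with the mice in the same order in each panel, from the lowest to the highest neutrophil mean; blue is PBS and orange rapamycin, and the axes have different ranges that do not start at 0. Synthetase means lie between 9.40 and 9.49 and are lowest in the mouse with the highest neutrophil mean.

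Differences in the ATF4 group ran in both directions. Of 16 measured, 6 had positive and 10 negative differences, against 44.72% and 55.22% of all genes. The median was -0.0253, against -0.0125 for all genes. With centred arrays the split was 7 positive, Trib3 having changed sign, and 9 negative. The groups did not overlap for Psph, Psat1 and Atf5, which lay lower with rapamycin, and for Cebpb, which lay higher. These are 3 of 16 lower and 1 of 16 higher, against 6.28% and 3.14% of all genes. Of the 7 measured enzymes of amino acid synthesis and folate use 6 lay below 0, all except Mthfd2, against 55.22% of all genes. The median of the 7 was -0.097. Of the 9 transcription factors and stress regulators 5 lay above 0 (median 0.0405), against 44.72% of all genes. This division by role is a description and was not tested. Rapamycin replicate 1 was the lowest of the 6 mice for Asns, Psat1, Psph, Phgdh and Shmt2. It was the lowest for 6 of the 16 members, or 37.5%, against 23% of all genes. That mouse also had the highest neutrophil mean, and the part of neutrophils in these differences was not tested. The median within-group SD was 0.0968, and 0 of 16 members were called in limma.

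**Figure D4:**
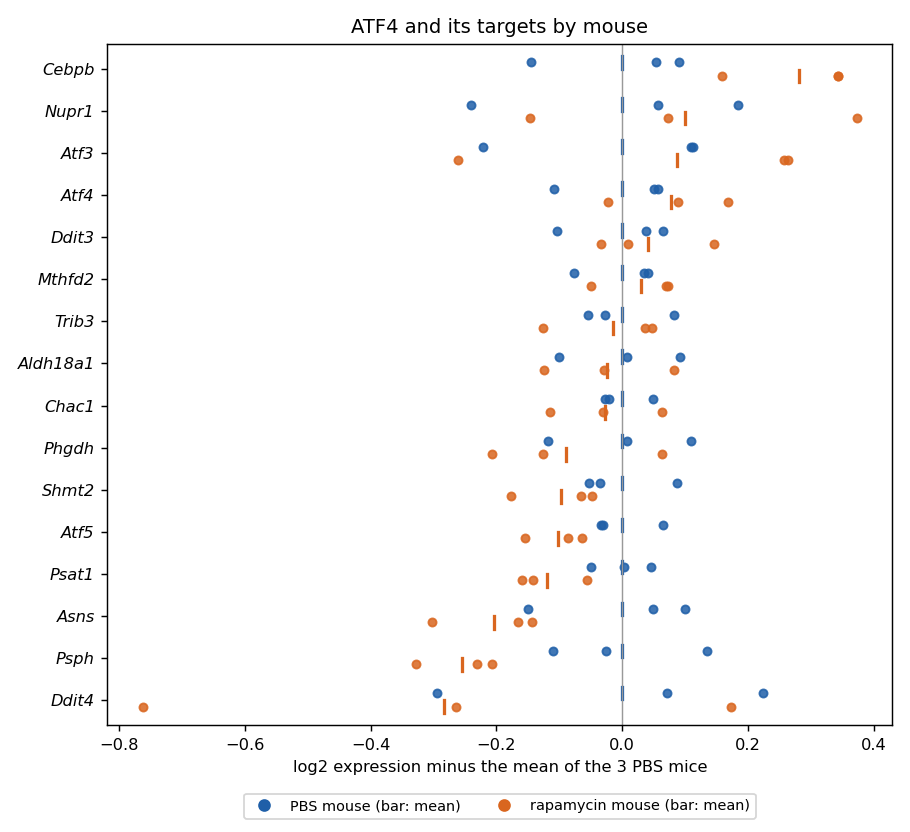
Log2 expression of Atf4 and 15 genes known as its targets or partners in each mouse, as the distance from the mean of the 3 PBS mice; points are mice, bars are group means, blue PBS and orange rapamycin. Psph, Psat1 and Atf5 are apart with rapamycin lower, Cebpb is apart with rapamycin higher, and Ddit4 has the widest spread.

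Atf4 itself measured 9.15, 9.31 and 9.31 in the PBS mice and 9.35, 9.43 and 9.23 in the rapamycin mice. The groups overlapped, and the difference was 0.078 (SE 0.087, 95% interval -0.12 to 0.28). It was positive in all 13 alternative settings, from 0.024 to 0.13. For a gene with a single probe set, some settings return the main difference by construction. These are the replicate block, the variance trend, the upper 50% of genes and the mean of probe sets. All settings reuse the same mice, so an unchanged sign adds no independent support. Since ATF4 is regulated chiefly in translation, the Atf4 values describe its mRNA alone.

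The serine pathway was measured in all its steps. Phgdh, the first enzyme, measured 8.94, 9.17 and 9.07 in the PBS mice and 8.86, 8.94 and 9.13 in the rapamycin mice, with a difference of -0.09 (SE 0.099) and rapamycin replicate 3 among the PBS values. A probe set shared by Phgdh and Gm6756 differed by -0.062 (SE 0.084). Psat1, the second enzyme, measured 9.63, 9.68 and 9.72 in the PBS mice and 9.51, 9.53 and 9.62 in the rapamycin mice. All rapamycin mice lay below the PBS mice, with rapamycin replicate 3 only narrowly so, and the difference was -0.12 (SE 0.075, 95% interval -0.29 to 0.05).

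Psph, the phosphatase that releases serine in the last step, had the smallest p of the lower genes. It measured 8.12, 8.20 and 8.37 in the PBS mice and 7.90, 8.02 and 7.9997 in the rapamycin mice, or 8.23 ± 0.12 with PBS and 7.97 ± 0.06 with rapamycin (SD, n = 3 each). The 3 rapamycin values were all under the lowest PBS value. The level was 1.19-fold lower, with a difference of -0.26 (SE 0.089, 95% interval -0.46 to -0.05), an unadjusted p of 0.0194 and an adjusted p of 0.982 in limma. Over 13 alternatives the difference lay between -0.31 and -0.19, and the adjusted p between 0.627 and 1.

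Serine is then used by the mitochondrial folate enzymes. Shmt2, which moves a one-carbon unit from serine to folate, measured 9.49 ± 0.08 with PBS and 9.39 ± 0.07 with rapamycin, and Mthfd2, the next enzyme, 9.16 ± 0.07 with PBS and 9.19 ± 0.07 with rapamycin. The differences were -0.10 (SE 0.08) and 0.03 (SE 0.079), of opposite sign and both with overlapping groups.

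Asns, which makes asparagine and carries the element printed above, measured 8.86, 9.11 and 9.06 in the PBS mice and 8.71, 8.84 and 8.87 in the rapamycin mice. PBS replicate 1 lay among the rapamycin values and the other PBS mice above them. The difference was -0.20 (SE 0.093, 95% interval -0.42 to 0.01), with an unadjusted p of 0.0586 and an adjusted p of 0.9998 in limma. It was negative in all 13 alternatives, from -0.28 to -0.15, some of which return the main difference by construction, as described for Atf4. Aldh18a1, the first enzyme of proline synthesis from glutamate, differed by -0.023 (SE 0.089) and kept its sign in only 10 of the 13 alternatives.

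Among the transcription factors Cebpb, a partner of ATF4 that is also abundant in myeloid cells, was the gene with the smallest p of the 34. It measured 7.76, 7.57 and 7.80 in the PBS mice and 7.87, 8.05 and 8.05 in the rapamycin mice, and every rapamycin mouse lay above every PBS mouse. The level was 1.22-fold higher, with a difference of 0.28 (SE 0.096, 95% interval 0.06 to 0.50), an unadjusted p of 0.0173 and an adjusted p of 0.982 in limma. Neutrophil markers had positive differences in 11 of 11 genes, and their list means, given above, overlapped between the groups. With that mean as a covariate the Cebpb difference was 0.33 (adjusted p = 0.502), and over the 13 alternatives it was 0.21 to 0.34 (adjusted p of 0.502 to 1). The same covariate moved other members either way. Psph went from -0.26 to -0.19 and Asns from -0.20 to -0.15, while Ddit4 went from -0.28 to -0.43. Macrophage markers had negative differences in 5 of 6 genes, with list means of 7.60 to 8.46 with PBS and 7.36 to 7.52 with rapamycin that did not overlap. Spic, a transcription factor of red pulp macrophages, measured 7.51, 6.70 and 6.93 in the PBS mice and 5.77, 5.84 and 5.50 in the rapamycin mice, with a difference of -1.34 (SE 0.19), an unadjusted p of 9.35e-05 and an adjusted p of 0.408 in limma. Without Spic, left out after the data were seen, the list means were 7.74 to 8.65 with PBS and 7.67 to 7.92 with rapamycin and overlapped. The part of macrophages in the values of these genes was not tested.

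Atf5, a paralogue of Atf4 that is likewise controlled in translation, measured 6.97, 7.07 and 6.98 in the PBS mice and 6.94, 6.92 and 6.85 in the rapamycin mice. The groups did not overlap, and the difference was -0.10 (SE 0.075, 95% interval -0.27 to 0.07). Atf3, an early stress and activation factor, measured 7.56, 7.23 and 7.56 in the PBS mice and 7.19, 7.71 and 7.71 in the rapamycin mice. PBS replicate 2 and rapamycin replicate 1 lay below the other mice, and the difference was 0.087 (SE 0.16). It ran from -0.024 without PBS replicate 2 to 0.26 without rapamycin replicate 1. Ddit3, which encodes the pro-apoptotic factor CHOP, differed by 0.041 (SE 0.086), with means of 7.10 ± 0.09 with PBS and 7.14 ± 0.09 with rapamycin.

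Ddit4 encodes REDD1, a stress-induced inhibitor of mTORC1. It measured 8.68, 8.83 and 8.31 in the PBS mice and 8.34, 7.84 and 8.78 in the rapamycin mice, a span of 0.985 that was the widest of the 34 genes. Rapamycin replicate 2 lay far below the other mice, while rapamycin replicate 3 lay near the top. The difference was -0.28 (SE 0.22, 95% interval -0.80 to 0.23), and without rapamycin replicate 2 it was -0.045.

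The stress regulators downstream of ATF4 gave no common direction. Nupr1, a small chromatin-associated stress protein, measured 7.49, 7.07 and 7.36 in the PBS mice and 7.16, 7.38 and 7.68 in the rapamycin mice, with a difference of 0.10 (SE 0.15) and overlapping groups. Trib3, a pseudokinase that restrains ATF4, differed by -0.014 (SE 0.084), and Chac1, which degrades glutathione, by -0.027 (SE 0.079). Both of these lay near the array medians of 6.03 to 6.17, at 6.55 and 6.38 with PBS, and their detection was not tested.

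**Figure D5:**
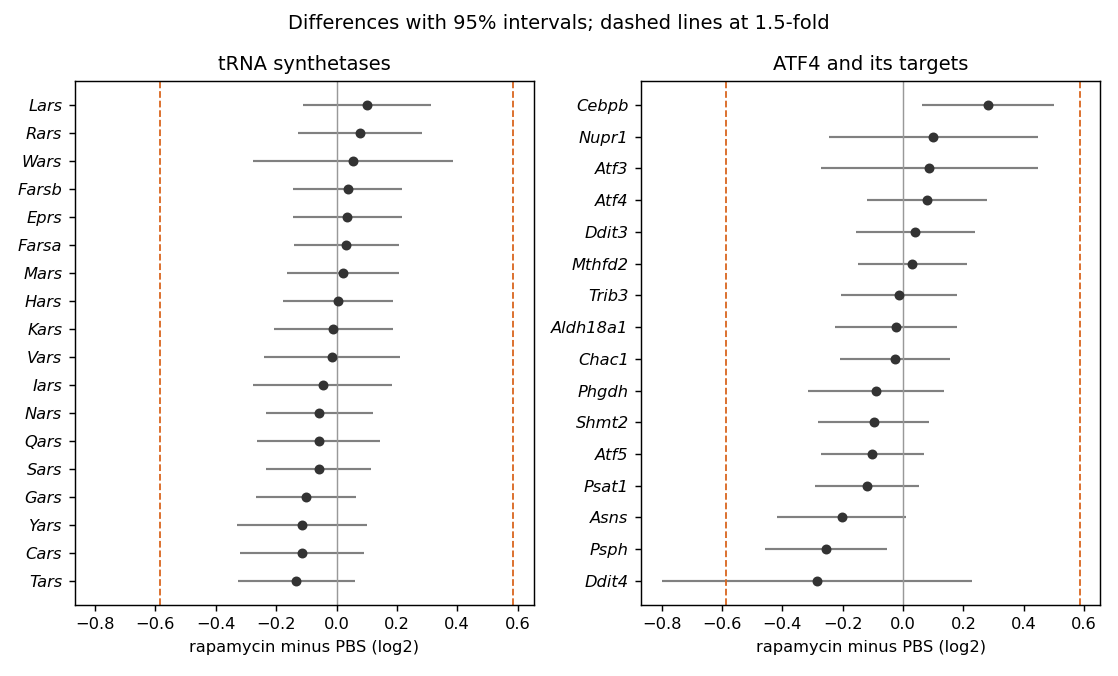
Difference (rapamycin minus PBS, log2) of each of the 34 genes with its 95% interval from limma, tRNA synthetases on the left and ATF4 with its targets on the right; dashed lines mark 1.5-fold in either direction. All intervals except that of Ddit4 lie between the dashed lines, and those of Psph and Cebpb do not include 0.

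Related genes were taken from lists of the same pathways. For these lists, here and below, the split by sign was not recounted with centred arrays. Centring moved the median of all genes from -0.0125 to 0.0038, so genes close to 0 could change sign. Of 16 measured mitochondrial synthetases, 13 had negative differences, against 55.22% of all genes, with a median of -0.0316. Ears2, for glutamate, measured 6.21 ± 0.07 with PBS and 6.33 ± 0.02 with rapamycin, and its groups did not overlap. It was the 1 gene of the 16 without overlap, against 3.14% of all genes higher with rapamycin and 6.28% lower. Fars2 differed by -0.13 (SE 0.085), Pars2 by -0.15 (SE 0.11) and Iars2 by -0.12 (SE 0.098), with overlapping groups. Of 7 genes for synthetase scaffolds, tRNA export and mitochondrial amidation, 5 lay above 0, against 44.72% of all genes. Eef1e1, a scaffold of the multi-synthetase complex, differed by 0.18 (SE 0.11). In both lists 0 members were called in limma and 0 had an unadjusted p under 0.05.

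Upstream of ATF4, 16 genes for the eIF2 kinases, eIF2 and its regulators were measured. Of these 11 had negative differences, against 55.22% of all genes, with a median of -0.0272. None of the 16 was called in limma, and 0 had an unadjusted p under 0.05. Eif2b4, a subunit of the eIF2 exchange factor, differed by -0.11 (SE 0.086), Ppp1r15a, a phosphatase subunit that reverses eIF2 phosphorylation, by -0.10 (SE 0.079), Eif2d, an initiation factor, by -0.085 (SE 0.077), and Eif2ak1, the haem-regulated kinase, by -0.16 (SE 0.15).

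Of 24 further ATF4 targets, 14 had positive and 10 negative differences, against 44.72% and 55.22% of all genes. The median of the 24 was 0.0279, with 0 calls in limma. At an unadjusted p under 0.05 there was 1 gene in each direction, Sesn2 lower and Cebpg higher, against 3.07% of all genes lower and 1.6% higher. The groups did not overlap for 1 of the 24 with rapamycin lower and 3 with rapamycin higher, where all genes gave 6.28% and 3.14%. Sesn2, which restrains mTORC1 when leucine is short, measured 7.77, 7.49 and 7.63 in the PBS mice and 7.27, 7.38 and 7.41 in the rapamycin mice and did not overlap between the groups. Its difference was -0.27 (SE 0.094), with an adjusted p of 0.982 in limma. Cebpg, a C/EBP partner of ATF4, measured 7.46, 7.55 and 7.45 in the PBS mice and 7.74, 7.73 and 7.61 in the rapamycin mice, and was likewise apart but higher with rapamycin, at 0.20 (SE 0.078). Ero1a, an oxidase of the endoplasmic reticulum, differed by 0.086 (SE 0.07) and Slc38a2, a carrier of neutral amino acids, by 0.10 (SE 0.079), both without overlap.

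The 10 further one-carbon and proline genes were positive in 6 cases (median 0.0215), against 44.72% of all genes. Of the 10, 0 had an unadjusted p under 0.05. Gcsh, of the glycine cleavage system, differed by 0.19 (SE 0.12) and Prodh, which degrades proline, by 0.10 (SE 0.09). Among 18 genes of the unfolded protein response outside the ATF4 branch, 13 lay above 0 (median 0.0324), against 44.72% of all genes. Of the 18, 0 were called in limma and 1, Atf6, was higher at an unadjusted p under 0.05 (1.6% of all genes). Atf6, the sensor of a separate branch, measured 9.89, 10.10 and 9.95 in the PBS mice and 10.18, 10.39 and 10.19 in the rapamycin mice, with no overlap and a difference of 0.27 (SE 0.094). Its unadjusted p was 0.0184 and its adjusted p 0.982 in limma. Atf6 was the 1 gene of the 18 without overlap, against 3.14% of all genes higher with rapamycin and 6.28% lower. Pdia6, a folding enzyme, differed by 0.16 (SE 0.11), Edem1, which takes part in the degradation of misfolded proteins, by 0.12 (SE 0.096) and the chaperone Hsp90b1 by 0.095 (SE 0.081).

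Markers of the sorted population were present on all arrays. Cd3e, part of the receptor complex used for the sort, measured 12.87 ± 0.05 with PBS and 12.84 ± 0.07 with rapamycin. Of 7 measured T cell markers, 4 had positive and 3 negative differences, with a median of 0.0259. Cd5, a T cell surface receptor, was lower with no overlap, at -0.19 (SE 0.08), with an adjusted p of 0.9998 in limma. It was the 1 marker of the 7 without overlap, against 6.28% of all genes lower with rapamycin. B cell markers had list means of 5.25 to 5.47, below the array medians. Of 5 measured, 3 had positive and 2 negative differences, with a median of 0.0069. Cd79b, 1 of the negative ones, lay above the array medians, at 7.38 ± 0.21 with PBS and 6.84 ± 0.05 with rapamycin. Its difference was -0.54 (SE 0.11), with an unadjusted p of 0.000913 and an adjusted p of 0.747 in limma. It was the 1 marker of the 5 without overlap, against 6.28% of all genes lower with rapamycin. Plasma cell markers differed by a median of 0.0323. Erythroid markers had list means of 6.01 to 6.51 with PBS and 6.29 to 6.82 with rapamycin. The part of these cells in the differences above was not tested.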

How the data were processed

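Total RNA of CD3-sorted spleen cells was measured on 6 whole-transcript Affymetrix arrays, 3 PBS and 3 rapamycin, with groups and replicate numbers from the sample titles. The authors deposited log2 expression after RMA in Affymetrix Expression Console, per the submitters' processing notes; versions, summary level and genome build are not given in the present sources. RMA equalises the arrays, so a change shared by most genes would not be seen, and low values are compressed. Array medians were 6.03 to 6.17, and the number of arrays limits the precision.

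Of 35556 probe sets, 23410 were in the platform's gene table, 21789 with 1 symbol, 1621 with several and the rest without an entry. Gene identifiers of 21698 were found in RefSeq (GRCm38.p6), which updated 0 symbols. A gene was represented by the probe set with 1 symbol that had the highest mean over the 6 arrays. The fit used limma 3.58.1 under R 4.3.3 (lmFit, eBayes, group as the only term), two-sided, with Benjamini-Hochberg adjustment over 19938 genes. The test was checked on simulated data. Figures used matplotlib 3.10.9. Promoter sequences are from RefSeq, GRCm38.p6.

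The members and lists were chosen with earlier results of these data known. All members with a probe set of their own are named, and of related lists up to 4 genes with the smallest p. Cd3e was named outside this rule. Titles call the mice biological replicates. The alternatives were a replicate block, leaving out each array, the upper 50% of genes by level, array weights, arrays centred on their medians, a variance trend, the neutrophil marker mean as covariate, and the mean of all probe sets of a gene.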

Additional observations from a re-analysis of the deposited data

How the results depend on the processing

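No member was called in limma in any of the 13 alternatives, and the list medians moved by less than the spread between mice. The median ran from -0.0331 to 0.0038 for the synthetases and from -0.0575 to -0.009 for the ATF4 group. Centring the arrays moved the median of all genes from -0.0125 to 0.0038. Over all genes, 1 gene was called in limma in the main setting and 4 with the neutrophil marker mean as covariate. Leaving out 1 array gave 0 to 7 calls, 7 without rapamycin replicate 1 and 0 without any other array, where 665 to 929 genes had an unadjusted p under 0.05. With the replicate number as a block 0 genes were called, 991 had an unadjusted p under 0.05, and the differences are the same by construction. Nothing in the labels says that the numbers pair the mice, and they were not taken as pairs. Deviations of same-numbered mice correlated at 0.0861, -0.192 and 0.195 over genes, and those of differently numbered mice at -0.438 to 0.365. Chac1 fell outside the upper 50% of genes and has no value there.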

Other observations

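The synthetases were also set out by the ATF4 composite element, a split made after their values were seen and given as a description. The 4 synthetases with a match and a value of their own, Gars, Iars, Tars and Yars, all had negative differences, from -0.13 to -0.046, with a median of -0.11. The 7 synthetases with a matched window and no match to these letters had differences from -0.059 to 0.037, with a median of 0.0205 and 3 negative. The Iars difference turned positive with array weights, with the neutrophil marker mean as covariate and without rapamycin replicate 1. A further Iars probe set gave a difference of 0.04 (SE 0.08), so the sign of Iars depended on the probe set. In the ATF4 group the order was the other way round: the 5 genes with a match, Asns, Chac1, Trib3, Atf3 and Nupr1, had a median of -0.0141, and the 11 without had a median of -0.09. The windows of 7 synthetases were not matched, so the split leaves out Cars, Hars, Lars, Nars, Rars, Vars and Wars.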
